A study of Mus musculus with 8 samples.

Results

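The regions described here are places in the mouse genome where Snf2h, the ATPase that drives ISWI chromatin remodeling complexes, ranked higher than Brg1 and CHD4 among the places that all 3 remodelers marked. The choice compares ranks and not amounts of tags. Hotspots of 6 lists that overlapped by at least 1 bp were merged into 532751 regions, of which 10442 held a hotspot of every list and are called common regions below. Within each library the tallest hotspot of a common region was taken, by its maximum tag density, and turned into a percentile among the 10442, with 100 for the tallest and the mean rank for ties. A region was kept where both Snf2h libraries had a percentile strictly above those of all 4 Brg1 and CHD4 libraries. This gave 2260 Snf2h-high regions, 21.6% of the common regions (95% Wilson interval 20.9% to 22.4%, counting error only) and 0.424% of all merged regions. Leaving out a library loosens the rule, since its hotspot and its rank are no longer asked for. Without Snf2h replicate 1, which has the shortest list, 6221 of 19578 regions met this looser rule, with only Snf2h replicate 2 required to rank highest.

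The 6 libraries are labelled as chromatin immunoprecipitation sequencing of untreated 3134 cells, a murine mammary epithelial line derived from a subclone of 904.13. There were 2 libraries each for Snf2h, for Brg1 (taken with a monoclonal antibody) and for CHD4, numbered replicates 1 and 2, and no allele or agent set the groups apart. The extraction text in the labels describes digestion of nuclei with DNase I and gives no immunoprecipitation steps, so how the tags were obtained rests on the titles and antibody labels. The DNA inputs were not analysed here, so binding cannot be told apart from copy number or background at any one region. The labels give a replicate number but no culture or day, and the spread between replicates may be purely technical. All coordinates are on mm9, and no sequence or gene annotation of that build was used.

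Snf2h belongs to the ISWI family, whose complexes slide nucleosomes along DNA and set them at even spacing. It works with several partner subunits in replication, transcription and repair, and in mammalian cells it is known to be needed for the binding of the insulator protein CTCF at many of its sites. Brg1 drives SWI/SNF complexes, which slide and evict nucleosomes and open enhancers and promoters. CHD4 drives NuRD, which joins remodeling to histone deacetylation.

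Because measured heights chose the regions, the next values describe the choice and carry no test. At the Snf2h-high regions the median percentile was 80.7 and 79.4 in Snf2h replicates 1 and 2, against 31.9 and 28.9 in the Brg1 replicates and 40.6 and 39.4 in the CHD4 replicates. In the authors' density units, whose scaling is not stated and which are not comparable between libraries, the medians were 29.8 and 47.5 for Snf2h, 33.6 and 14.5 for Brg1, and 17.7 and 11.9 for CHD4. The same libraries had medians of 20.1 and 27.9 for Snf2h, 47.5 and 21.8 for Brg1, and 20.1 and 13.6 for CHD4 over all common regions. Snf2h was therefore above its usual height at these places in both libraries, and Brg1 and CHD4 were below theirs in all 4.

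At their median, the Snf2h-high regions were not weak hotspots in any list as a whole. Set against every hotspot of its own list, the median Snf2h-high region stood at percentile 91.9 and 96.4 in the Snf2h lists. It stood at 80.5 and 90.5 in the Brg1 lists and at 66.5 and 94.7 in the CHD4 lists. The lists differ in length and in lowest Z score, so these percentiles are not comparable between lists. Common regions are tall in every list: over all 10442 the same medians were 74.997 and 86.8 for Snf2h, 88.1 and 94.3 for Brg1, and 74.2 and 96.1 for CHD4. The Snf2h-high regions were thus above the usual common region in both Snf2h lists and below it in all 4 others.

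**Figure D1:**
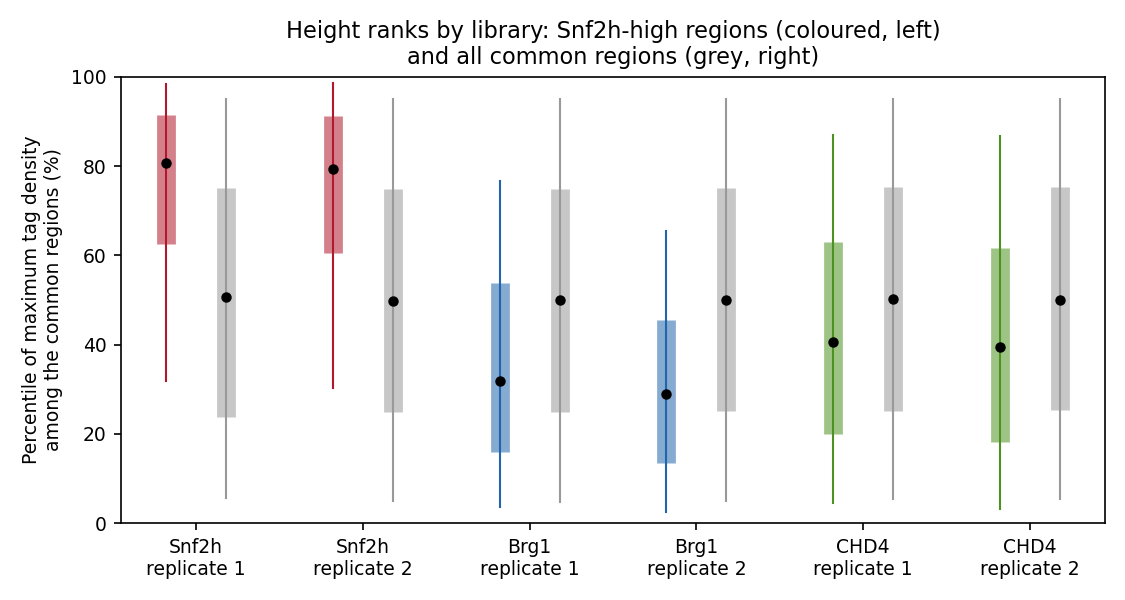
Percentile of maximum tag density among the 10442 common regions (vertical axis, %) in each of the 6 libraries, for the 2260 Snf2h-high regions (coloured, left of each pair) and for all common regions (grey, right). Points are medians, thick bars run from the 25th to the 75th percentile of the regions and thin lines from the 5th to the 95th; the Snf2h medians of 80.7 and 79.4 stand above all 4 medians of Brg1 and CHD4, which lie between 28.9 and 40.6.

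The margin of a region is its lower Snf2h percentile minus the highest of its Brg1 and CHD4 percentiles. The median margin was 12.3 points, with quartiles of 5.42 and 22.7. It was at least 10 points at 1326 of the 2260 regions (58.7%), at least 25 points at 455 (20.1%) and at least 50 points at 22. The library that came closest to Snf2h was CHD4 replicate 1 at 832 regions, CHD4 replicate 2 at 713, Brg1 replicate 1 at 513 and Brg1 replicate 2 at 202. Both CHD4 libraries stood above both Brg1 libraries at 34.4% of the Snf2h-high regions and at 19.8% of the other common regions. The opposite order, both Brg1 libraries above both CHD4 libraries, was found at 8.05% of the Snf2h-high regions and at 28.4% of the others. The choice itself can favour such orders, and so can the group compared. The others include the 1756 regions where both Brg1 libraries ranked highest, which have the Brg1-first order by definition, among 2327 with it. They also include the 615 where both CHD4 libraries ranked highest, among 1620 with the CHD4-first order. The lower Brg1-first share at Snf2h-high regions is thus largely set by the grouping, and all these shares are a description. Because the rule uses the same Snf2h percentiles, membership also followed Snf2h height. In the top 10% by mean Snf2h percentile 68.9% of the regions were Snf2h-high, and in the lowest 10% 1.34% were. Of the 100 tallest common regions of Snf2h replicates 1 and 2, 68 and 80 were Snf2h-high.

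In the 10 regions of largest margin, the Snf2h percentiles ran from 67.7 to 94.5 and those of Brg1 and CHD4 from 1.83 to 35.3. A region on chromosome 1 at 166068599 to 166069488 had densities of 44.3 and 37.4 in the Snf2h libraries, 19.7 and 7.59 in the Brg1 libraries and 9.36 and 6.18 in the CHD4 libraries. Those placed it at percentiles 94.5 and 67.7 for Snf2h, at 10.9 and 6.45 for Brg1 and at 5.36 and 8.001 for CHD4. Both Snf2h values lay far above the other 4, although the Snf2h replicates themselves were apart by more than the whole range of the others. A narrow region on chromosome 19, at 60887064 to 60887764, had closer Snf2h replicates, at percentiles 88.1 and 88.9. Its Brg1 percentiles were 35.3 and 31.6 and its CHD4 percentiles 28.5 and 33.0. All but that of CHD4 replicate 1 were the highest of their library among the 10. Over these 10 regions the margin ran from 52.2 to 59.1 points, and the widths from 567 to 2691 bp. They lay on chromosomes 1, 4, 5, 7, 11, 17 and 19.

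The tallest Snf2h-high regions differed in what the other remodelers did. The region on chromosome 11 at 120091135 to 120093261 had densities of 121 and 207 in the Snf2h libraries, 65.4 and 26.9 in the Brg1 libraries and 17.7 and 11.9 in the CHD4 libraries. It ranked at percentile 99.9 in both Snf2h libraries, at 67.3 and 58.6 for Brg1 and at 40.6 and 39.4 for CHD4. There Brg1 was above the middle of the common regions and CHD4 below it. Elsewhere on chromosome 11, at 59040722 to 59042593, the order of the other remodelers was the reverse. Densities there were 118 and 265 for Snf2h, 33.6 and 13.8 for Brg1, and 45.4 and 24.7 for CHD4, which gave percentiles of 31.9 and 25.8 for Brg1 and 94.3 and 88.9 for CHD4. The region of highest mean Snf2h percentile, on chromosome 2 at 151319380 to 151321235, was tall in most libraries. It had 152 and 320 for Snf2h, 149 and 41.9 for Brg1, and 90.1 and 62.3 for CHD4, with a margin of only 0.182 points.

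The rule also kept low regions, since it compares ranks and not amounts. Both Snf2h percentiles were over 90 at 424 Snf2h-high regions (18.8%) and under 50 at 193 (8.54%). The lowest of all, on chromosome 8 at 6207460 to 6208426, had densities of 9.70 and 7.80 for Snf2h, 9.27 and 2.69 for Brg1 and 6.59 and 2.72 for CHD4. Its Snf2h percentiles of 2.79 and 2.62 stood above those of the other libraries, which lay between 0.244 and 0.833. Near the threshold there were 121 regions with a margin of up to 1 point, and 124 other common regions fell short by less than 1 point. The smallest margin, 0.00479 points, was on chromosome 7 at 148524275 to 148527014, with percentiles of 54.1 and 48.7 for Snf2h and between 36.7 and 48.7 for the others. Just outside were 3 regions with a margin of exactly 0, a tie between libraries. Among them was the tallest common region of both Snf2h and both CHD4 lists, on chromosome 8 at 20019637 to 20020624. Ties within a library are a separate matter and are common, since heights move in steps. The common regions had 140 distinct heights in Snf2h replicate 1, and the largest tie there held 444 regions.

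Among the common regions, the order seen in the choosing libraries was repeated in the checking libraries more often than not. Every list had already helped to define the common regions, so no checking library was fully separate from the choice. The shares describe how often the ranks repeat and are not an independent test. Snf2h replicate 1 was above all 4 Brg1 and CHD4 libraries at 3161 common regions (30.3%), and at 71.5% of these Snf2h replicate 2 was above them too (95% Wilson interval 69.9% to 73.0%). At the common regions where Snf2h replicate 1 was not above, the share was 18.9%. In the other direction, 62.1% of the 3639 regions chosen with Snf2h replicate 2 (34.8% of the common regions) were also called by replicate 1, against 13.2% of those not chosen. These checks share their Brg1 and CHD4 libraries. With no library shared in the ranking, 3916 regions (37.5%) had Snf2h above Brg1 and CHD4 in the replicate 1 libraries. Of these, 70.7% had the same order in the replicate 2 libraries, against 25.4% of the regions not chosen. The reverse choice gave 4422 regions (42.3%), of which 62.6% were called, against 19.1% of those not chosen. The Snf2h percentiles of the 2 replicates differed by a median of 8.26 points at Snf2h-high regions and of 16.7 points at the other common regions, a gap that the rule itself limits.

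Snf2h-high regions were frequent among the narrowest common regions. Their median width was 1404 bp, against 1522 bp for the other common regions, with ranges of 395 to 8252 bp and 402 to 8615 bp. Of the 809 common regions under 750 bp, 342 (42.3%, 95% Wilson interval 38.9% to 45.7%) were Snf2h-high. From 750 bp to under 1000 bp the share was 22.9%, and it lay between 18.97% and 19.8% in the 4 wider classes. Brg1 libraries ranked highest at 9.39% of the narrowest class, against 16.8% of all common regions, and CHD4 libraries at 3.96%, against 5.89%. Each Snf2h library on its own was also above the other remodelers most often in the narrowest class, replicate 1 at 57.6% and replicate 2 at 50.9%, against 30.3% and 34.8% overall. They differed in the wide classes. Replicate 1 stood at 33.9% from 750 bp to under 1000 bp and between 25.9% and 27.7% above that, while replicate 2 had its lowest share, 30.2%, from 1000 bp to under 1500 bp and 39.3% at 3000 bp and over. With members chosen by average tag density or by Z score, the narrowest class held 34.7% and 39.9%.

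**Figure D2:**
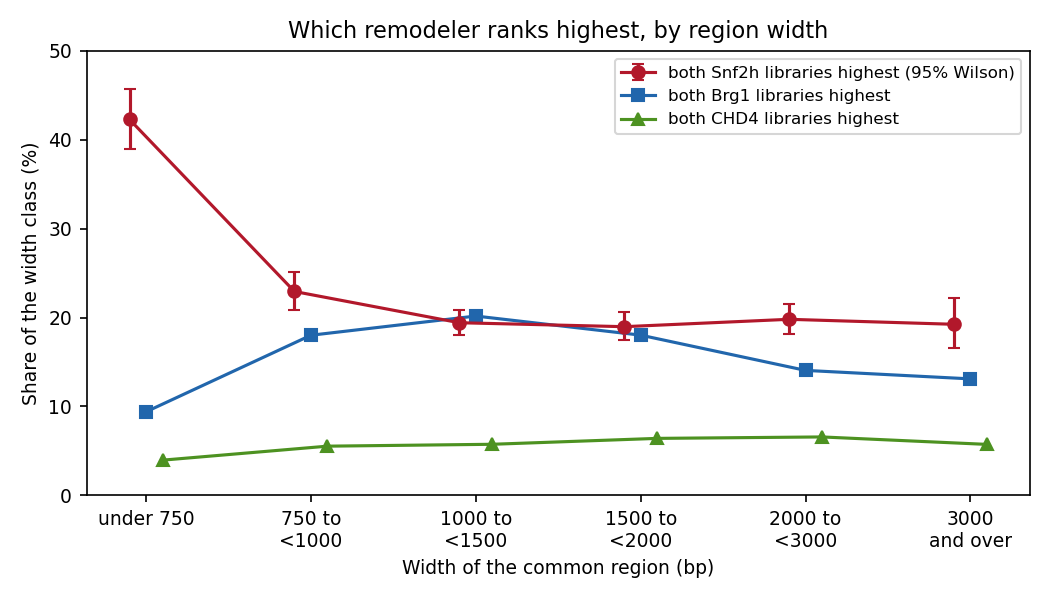
Share of the common regions of each width class (horizontal axis, bp) in which both libraries of a remodeler ranked highest (vertical axis, %), with 95% Wilson intervals for Snf2h. Snf2h led at 42.3% of regions under 750 bp and at 18.97% to 22.9% of the wider classes, while Brg1 led at 9.39% of the narrowest.

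Width and height come from the same tags, so this is a description and no test was made. Across the 10442 common regions, which are not independent, Spearman's rho of width with height was 0.0368 and 0.168 in Snf2h replicates 1 and 2, 0.240 and 0.187 in the Brg1 replicates, and 0.112 and 0.263 in the CHD4 replicates. Narrow Snf2h-high regions ranked lower than wide ones in all 6 libraries, by the least in Snf2h replicate 1. In the 342 under 750 bp the median percentiles were 75.1 and 63.9 for Snf2h, 16.8 and 11.2 for Brg1, and 30.01 and 17.6 for CHD4. In the 1009 over 1500 bp they were 81.9 and 83.9 for Snf2h, 43.2 and 35.6 for Brg1, and 44.7 and 48.6 for CHD4. The median margin was 15.6 points in the narrow regions and 11.05 points in the wide ones. The tallest hotspot of a region was also wider in Snf2h libraries and narrower in the others: its median width at Snf2h-high regions over that at other common regions was 1.25 and 1.10 in the Snf2h libraries, 0.849 and 0.881 in the Brg1 libraries, and 0.865 and 0.848 in the CHD4 libraries.

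The neighbours of Snf2h-high regions were more often Snf2h-high than those of other common regions, though most were not. At the median, Snf2h-high regions did not lie closer to their neighbours. The median gap to the nearest common region was 38543.5 bp for Snf2h-high regions and 36393 bp for the others, and 4.47% and 5.95% had one within 1 kb. Gaps of 100 kb or more were rarer at Snf2h-high regions, at 21.2% against 24.3%. The nearest common region was itself Snf2h-high for 633 of the 2260 (28.0%, 95% Wilson interval 26.2% to 29.9%) and for 19.2% of the other common regions. At gaps under 1 kb the shares were 37.6% of 101 Snf2h-high regions (28.8% to 47.4%) and 13.1% of 487 others (10.4% to 16.4%). At gaps of 10 to 50 kb they were 30.6% of 850 and 20.03% of 2856, and at 100 to 1000 kb 23.0% of 469 and 19.6% of 1935. The intervals cover counting error only, neighbours are counted from both sides, and neighbours can share tags. For regions where Brg1 ranked highest, the nearest common region was also led by Brg1 at 18.2%, against 16.5% around the others, and for CHD4 the shares were 9.92% and 6.22%. At gaps under 1 kb they were 22.4% of 98 and 15.7% of 490 for Brg1, and 15.4% of 65 and 10.1% of 523 for CHD4. The difference between remodelers was not tested.

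The raised share was also seen when a region and its neighbour were ranked in separate libraries, within common regions that every list had defined. When regions were chosen in the replicate 1 libraries and their nearest neighbours called in the replicate 2 libraries, 47.5% of neighbours were called, against 37.1% around the regions not chosen. Choosing in replicate 2 and calling in replicate 1 gave 43.5% and 32.5%. It was smaller by another height measure. With Z score in place of maximum density, the nearest common region was Snf2h-high at 21.9% of Snf2h-high regions and at 19.5% of the others, and with average density at 26.5% and 18.8%. By Z score the difference remained at gaps under 10 kb, at 23.7% against 15.2%, compared with 30.9% against 15.6% by maximum density. Between 10 and 50 kb it was 23.0% against 20.01% by Z score. With separate replicate libraries, Z score gave 42.9% against 37.9% and 40.9% against 34.9%.

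**Figure D3:**
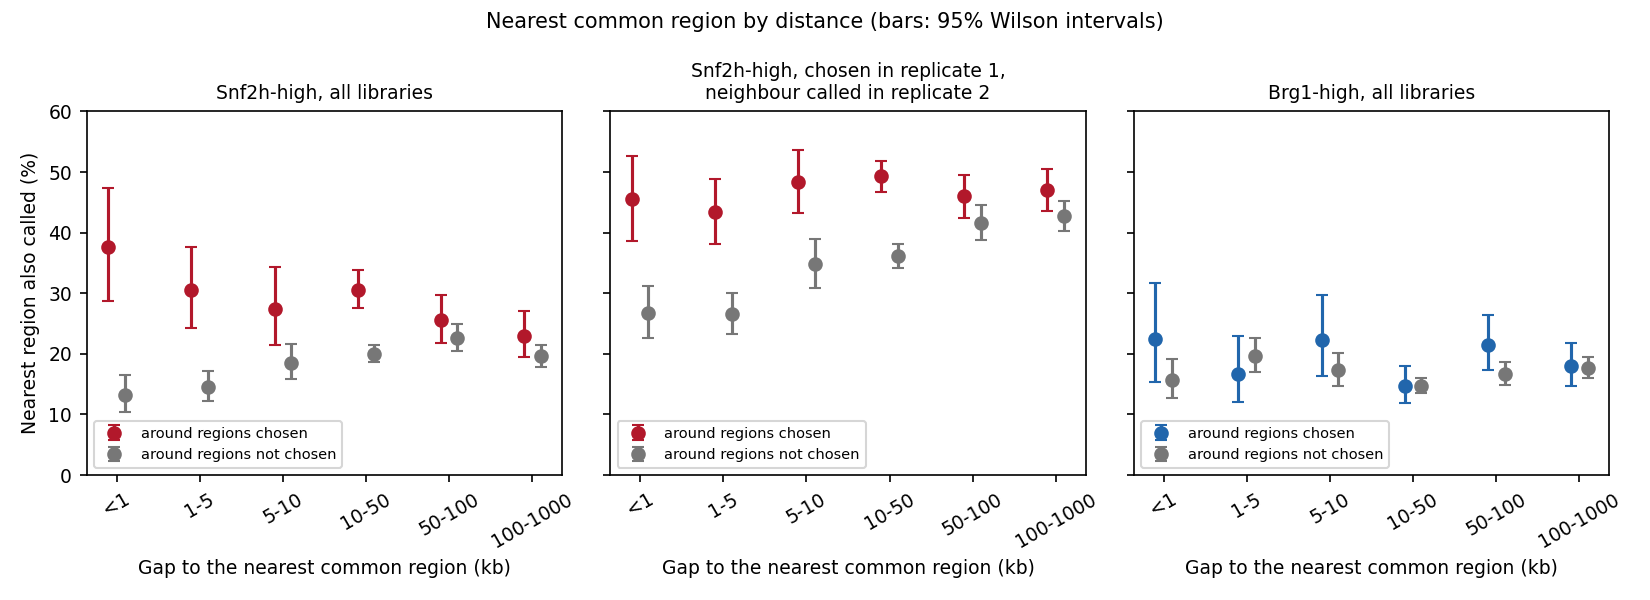
Share of regions whose nearest common region was also called (vertical axis, %), by the gap between them (horizontal axis, kb), for regions chosen (coloured) and not chosen (grey), with 95% Wilson intervals. The left panel shows Snf2h-high regions, where the shares were 37.6% and 13.1% at gaps under 1 kb. The middle panel uses separate libraries for the region and for its neighbour. The right panel shows Brg1-high regions, where the shares were 22.4% and 15.7% at gaps under 1 kb.

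Along the chromosomes, 1232 Snf2h-high regions had no Snf2h-high region next to them in the order of common regions, 299 runs held 2 in a row, 74 held 3, 28 held 4 and 18 held 5 or more. The longest runs held 6. They spanned from 413 kb on chromosome 17, at 28416610 to 28829800, to 7473 kb on chromosome 7, at 6122843 to 13595563, so a run was not always a tight group. The 1 Mb bin with most was on chromosome 11 at 100000001 to 101000000, where 10 of 16 common regions were Snf2h-high. A bin on chromosome 17 from 26000001 to 27000000 held 9 of 15. One on chromosome 15 from 102000001 to 103000000 held 9 of 14. In all, 12 bins held 8 or more, and those with 8 had from 11 to 24 common regions. These bins were picked for their counts, so their shares are no evidence of clustering.

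Hotspots around the regions, outside every common region, were not used by the rule. They come from the libraries whose order chose the regions, so they are described without a test. Within 10 kb, the Snf2h-high regions had 0.214 and 0.896 such hotspots per region in Snf2h replicates 1 and 2, 1.11 and 2.79 in the Brg1 replicates, and 0.428 and 3.09 in the CHD4 replicates. Around the other common regions the numbers were 0.209 and 0.962 for Snf2h, 1.31 and 3.16 for Brg1, and 0.629 and 3.66 for CHD4. The ratio of Snf2h-high to other regions was 1.03 and 0.932 in the Snf2h libraries, 0.849 and 0.884 in the Brg1 libraries, and 0.681 and 0.844 in the CHD4 libraries. Brg1 and CHD4 hotspots were therefore fewer around Snf2h-high regions in all 4 libraries, and Snf2h hotspots were about as many. The Snf2h ratios exceeded the other 4 on average by 0.164 within 10 kb, by 0.232 within 5 kb, by 0.136 within 20 kb and by 0.0564 within 100 kb, where the 6 ratios lay between 0.925 and 1.08.

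Flanking hotspots also differed in height. Each was ranked among the hotspots of its own library that lay outside the common regions. Within 10 kb, the mean percentile was 80.1 around Snf2h-high regions and 73.0 around other common regions in Snf2h replicate 1, and 74.3 and 69.7 in Snf2h replicate 2. In the Brg1 libraries it was lower around Snf2h-high regions, by -3.15 points in replicate 1 and -3.75 in replicate 2. In the CHD4 libraries the differences were -1.24 and -2.44 points. The Snf2h libraries thus exceeded the others by 8.43 points, and they were the highest 2 of the 6 at all 4 flank sizes, which are nested and share hotspots. At 100 kb the differences were 4.17 and 4.18 points for Snf2h, -1.15 and -2.03 for Brg1 and -1.18 and -0.990 for CHD4. By Z score within 10 kb they were 6.26 and 2.64 points for Snf2h and between -4.50 and -2.20 for the other 4.

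**Figure D4:**
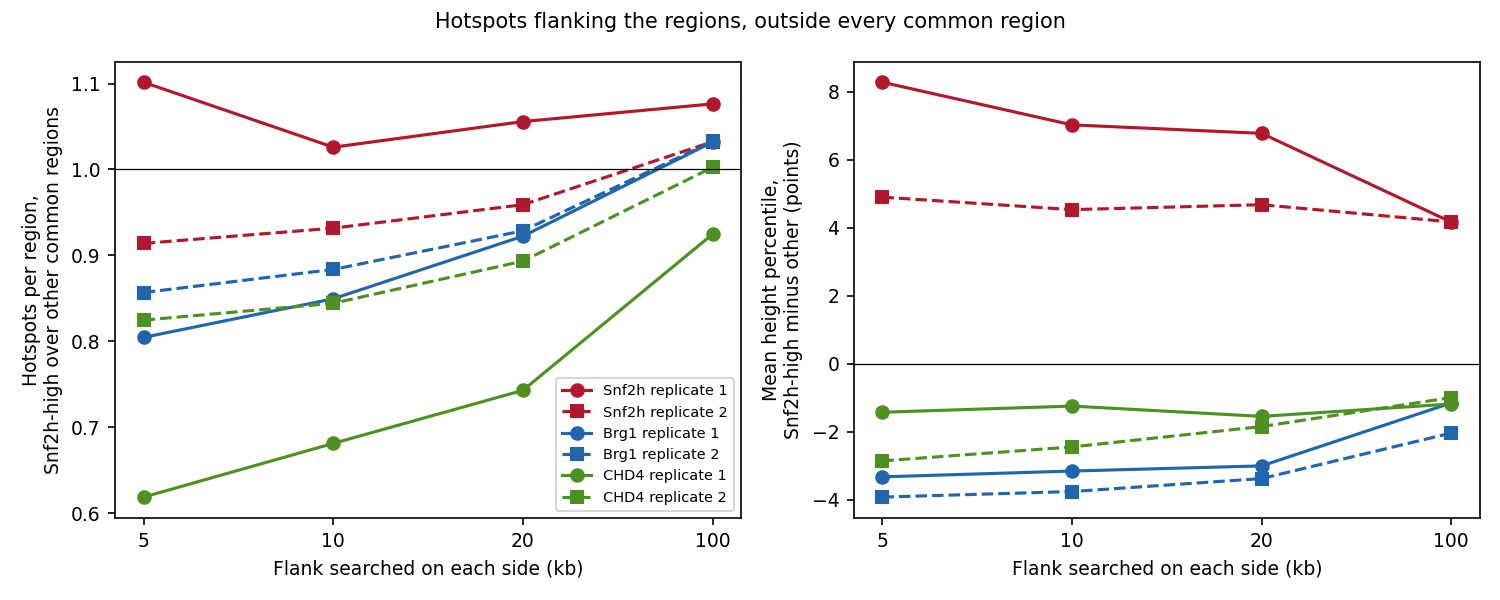
Hotspots outside the common regions, by the flank searched on each side (horizontal axis, kb, not to scale), one line per library. The left panel shows hotspots per region around Snf2h-high regions over those around other common regions, and the right panel shows the difference in mean height percentile (points); at 10 kb the Snf2h libraries had ratios of 1.03 and 0.932 and differences of 7.03 and 4.54 points, above all 4 others.

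The share of common regions that were Snf2h-high differed between chromosomes. It was highest on chromosome 19, with 94 of 327 (28.7%, 95% Wilson interval 24.1% to 33.9%), followed by chromosome 11 with 208 of 786 (26.5%, 23.5% to 29.7%) and chromosome 17 with 113 of 446 (25.3%, 21.5% to 29.6%). It was lowest on X, with 40 of 241 (16.6%, 12.4% to 21.8%), and on chromosome 18, with 48 of 288 (16.7%, 12.8% to 21.4%). Chromosome 19 ranked first in each Snf2h library alone, at 36.1% and 41.3%. Chromosomes with more common regions per Mb had larger shares, with Spearman's rho of 0.666 over 20 chromosomes, a description given without a test. Chromosomes 11 and 19 had 6.62 and 5.61 common regions per Mb and X had 1.47.

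The place of X depended on the library and on the height measure. Snf2h replicate 1 was above the Brg1 and CHD4 libraries at 24.1% of the X regions, 19th of 20 chromosomes, and Snf2h replicate 2 at 39.4%, second of 20. In the replicate 1 libraries alone X stood at 32.8%, and in the replicate 2 libraries at 47.3%. With members chosen by average density or by Z score, X held 24.9% and 24.1%, above chromosome 18 at 19.4% and 18.4%. The low X share is therefore not a property of both Snf2h libraries. Chromosome 19 stayed high by these measures, at 27.8% and 26.0%, against 21.0% and 20.6% of all common regions. Chromosomes 11 and 17 came closer to those overall shares, chromosome 11 at 23.3% and 22.5% and chromosome 17 at 22.6% and 21.7%.

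**Figure D5:**
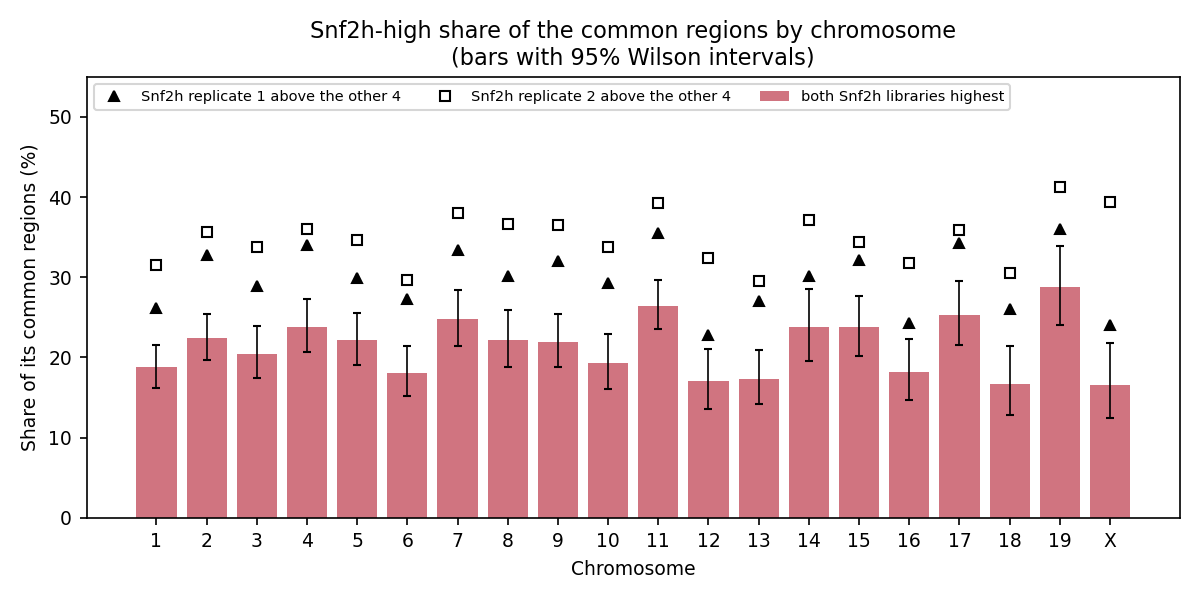
Share of each chromosome's common regions that were Snf2h-high (bars, %, with 95% Wilson intervals), and the share where Snf2h replicate 1 (triangles) or replicate 2 (squares) alone was above the Brg1 and CHD4 libraries. Chromosome 19 was highest at 28.7%; on X the 2 Snf2h libraries stood apart, at 24.1% and 39.4%.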

How the data were processed

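Reads were placed on mm9, and CASAVA 1.6 was used in a role that is not given, per the submitters' processing notes. The authors made one hotspot list per library. The sources used here do not name the caller, its thresholds or its use of the inputs. Each hotspot of the deposited lists carries a signal (maximum and average tag density, scaling not stated), a score (the Z score of enrichment) and a p-value, per the file headers. The p-value was not used. The lists held 32310 and 79969 hotspots for Snf2h, 115361 and 260036 for Brg1 and 39797 and 293135 for CHD4, with a lowest Z score of 2.00 in Brg1 and CHD4 replicate 2 and of 8.50 to 9.49 elsewhere. Tag totals are unknown, so no precision from depth can be given.

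Intervals were read as closed. Python 3.11.15, numpy 2.4.6, scipy 1.17.1, pandas 2.3.3 and matplotlib 3.10.9 were used. The code that chose the regions was run on simulated lists of equal length with a strong planted Snf2h rise and little noise. Those lists lack the ties and unequal lengths of the real ones, so the run checks the code only. Gaps were measured between region edges, and a flanking hotspot was placed by its midpoint. Regions were named by rule: the 10 of largest margin, the 5 of highest and of lowest mean Snf2h percentile, the 3 nearest the threshold on each side, and the bins of 1 Mb with most, of which 9 tied for the fourth place and are given by their range. A permutation over libraries, planned for the flanking hotspots, is not reported because the library labels chose the regions. The regions and these choices were made with earlier results of these data known. Promoters, gene lists and motifs need mm9 annotation or sequence and were not analysed here.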

Additional observations from a re-analysis of the deposited data

How the results depend on the processing

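Of 16 alternatives for each result, 12 kept the number of Snf2h-high regions within 1.5 times of 2260. The number was 542 with percentiles over the whole list, 1436 with lists of equal length (32310 hotspots) and 1326 with a margin of at least 10 points. Leaving out 1 library, which also drops its condition from the rule, gave 2370 to 6221, the highest without Snf2h replicate 1. As a share of the common regions it was 5.19% with percentiles over the whole list, 12.7% with the 10-point margin, 20.2% with the mean over a library's hotspots, 20.6% by Z score, 20.8% without the tallest 1% of common regions and 22.6% to 31.8% with 1 library left out. The share of the 2260 regions that was chosen again was 23.5% with percentiles over the whole list, 53.9% with lists of equal length, 68.5% at a common lowest Z score, 73.8% by average tag density, 85.3% by Z score and 97.6% with an overlap of 50% of the shorter hotspot.

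The median width was 1464 bp by average tag density, 1215 bp with percentiles over the whole list, 1334 bp with an overlap of 50% of the shorter hotspot, 1533 bp at a common lowest Z score of 9.49, 1611.5 bp with lists of equal length, 1345 bp with the 10-point margin and 1184 to 1499.0 bp with 1 library left out. The share of Snf2h-high regions whose nearest common region was also Snf2h-high was 21.9% by Z score, 6.46% with percentiles over the whole list, 17.7% with the 10-point margin and 28.3% to 40.4% with 1 library left out. It exceeded the share of common regions that were Snf2h-high in all 16 alternatives, by the least with percentiles over the whole list and by Z score. The 10-point margin keeps only a part of the chosen regions, and leaving out 1 library changes both the common regions and the rule. Shifts under those alternatives are therefore partly built in. The cause of the other shifts was not tested.

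With the replicate block, in which each Snf2h library is set only against the Brg1 and CHD4 libraries of its number, 2767 regions (26.5%) were chosen, and 32.3% had a Snf2h-high nearest region. The labels do not say that a number marks a shared batch. Deviations of same-numbered libraries correlated at -0.173 for Snf2h with Brg1, 0.0853 for Snf2h with CHD4 and -0.0316 for Brg1 with CHD4. Whether libraries of the same number share a batch was not tested. The checks with separate libraries, the flanks of 5, 20 and 100 kb, the shares per Snf2h library by width and chromosome, and the repeats of these by other height measures were chosen after seeing the data. Tag depth is unknown, and coarse height steps limit what the ranks of Snf2h replicate 1 can resolve.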

Other observations

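The tallest hotspots of different libraries were centred close to each other at Snf2h-high regions. The median distance between the midpoints of the tallest Snf2h replicate 1 hotspot and the tallest CHD4 replicate 1 hotspot was 54.0 bp at Snf2h-high regions and 91.5 bp at other common regions. That pair lay nearer than the 2 Snf2h replicates lay to each other, at 67.0 bp and 101.5 bp. The remaining Snf2h with CHD4 pairs lay farther apart than 67.0 bp at Snf2h-high regions. Snf2h replicate 2 was 76 bp from CHD4 replicate 1 and 107 bp from CHD4 replicate 2, and Snf2h replicate 1 was 128 bp from CHD4 replicate 2. Snf2h replicate 1 and Brg1 replicate 1 were 105.75 bp apart at Snf2h-high regions and 137.5 bp at others. Brg1 replicate 1 and CHD4 replicate 1 went the other way, at 121 bp at Snf2h-high regions and 102 bp at others, as did Brg1 replicate 2 and CHD4 replicate 1, at 152 bp and 134 bp. Midpoints of wide hotspots are placed less exactly, and hotspot widths differ between libraries, so these distances are given as values with no test.

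Besides the Snf2h replicate pair, which the rule counts, other pairs of libraries held the top 2 ranks elsewhere. The Brg1 replicate pair did so at 1756 common regions (16.8%) and the CHD4 replicate pair at 615 (5.89%). An even share over the 15 pairs would be 6.67%. Brg1 replicate 2 with CHD4 replicate 1 held them at 730 regions (6.99%) and with CHD4 replicate 2 at 727 (6.96%), more than the CHD4 replicate pair. Of the pairs that join Snf2h to another remodeler, Snf2h replicate 2 with CHD4 replicate 2 had the most, 694 (6.65%). Snf2h replicate 2 with Brg1 replicate 2 had the fewest, 222 (2.13%).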
